A study of Mus musculus with 4 samples.

Results

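Receptor and bridging genes, 10 in number, by which leukocytes take up dead cells and modified lipoproteins were followed in immune cells of the mouse ovary: Mertk, Axl, Timd4, Itgb5, Cd300lf, Mfge8, Stab1, Mrc1, Cd36 and Lrp1. They were chosen by symbol as known efferocytosis and scavenger genes, with earlier results of these data known. All 10 were found among the 32285 genes of the deposited count matrix. Female C57BL/6J mice aged 10 to 12 weeks received either gonadotropin or saline, the saline group being labelled Untreated, and ovaries were taken 48 h later. Viable CD45+ cells, that is leukocytes, were sorted from 5 mice per group, each mouse was given its own hashtag antibody, and each group was pooled into 1 droplet library of 3' ends (10x Genomics). The dose, the kind of gonadotropin and the stage of the cycle are not given in the sources used here. The mouse is the replicate. Because each treatment is 1 library, an effect of treatment and an effect of library cannot be told apart in any comparison between the groups.

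A dying cell exposes phosphatidylserine, and phagocytes read it either directly or through soluble bridges. Direct receptors include Timd4 (TIM-4), Stab1 (stabilin-1) and Cd300lf. The bridges are Gas6 for the kinases Mertk and Axl, protein S for Mertk, and Mfge8 for the integrin that contains Itgb5. Cd36, Mrc1 (the mannose receptor, CD206) and Lrp1 bind broader sets of ligands, among them oxidised lipoproteins, mannosylated glycoproteins and complexes of proteases with their inhibitors. In the ovary these pathways serve the clearance of atretic follicles and of the regressing corpus luteum, both of which are rich in apoptotic cells.

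Mertk, Stab1, Lrp1 and Itgb5 were the members that passed the test between treatments in the sum of all CD45+ cells, as described further on, and the stretch before the start of each gene is shown because all 4 passed that test, although their order over mice was not the same. The sequences are from RefSeq (build GRCm38.p6), run 5' to 3' on the gene's strand, and cover the 250 bases before the annotated start. For Stab1 the last 10 of those lie inside the annotated gene span and are left off, so that 240 are printed. Capitals mark a PU.1 core (GAGGAA, or TTCCTC on the other strand) and a Maf half-site (TGCTGA, or TCAGCA). The letters do not overlap each other.
Mertk, chr2:128698665-128698914, plus strand: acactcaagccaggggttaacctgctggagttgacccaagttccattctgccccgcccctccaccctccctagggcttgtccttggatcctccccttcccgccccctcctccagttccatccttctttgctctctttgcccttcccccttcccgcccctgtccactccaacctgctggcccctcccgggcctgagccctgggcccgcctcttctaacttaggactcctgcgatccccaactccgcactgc
Stab1, chr14:31168652-31168891, minus strand: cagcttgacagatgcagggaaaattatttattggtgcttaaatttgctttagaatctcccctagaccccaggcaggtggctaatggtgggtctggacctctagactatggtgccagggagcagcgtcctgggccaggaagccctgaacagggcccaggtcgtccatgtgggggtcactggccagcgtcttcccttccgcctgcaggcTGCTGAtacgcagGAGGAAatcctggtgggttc
Lrp1, chr10:127621149-127621398, minus strand: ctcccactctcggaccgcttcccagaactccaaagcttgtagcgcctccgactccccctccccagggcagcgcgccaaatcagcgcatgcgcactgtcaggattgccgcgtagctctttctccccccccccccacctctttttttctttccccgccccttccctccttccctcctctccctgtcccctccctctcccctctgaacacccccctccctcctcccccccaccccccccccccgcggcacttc
Itgb5, chr16:33829415-33829664, plus strand: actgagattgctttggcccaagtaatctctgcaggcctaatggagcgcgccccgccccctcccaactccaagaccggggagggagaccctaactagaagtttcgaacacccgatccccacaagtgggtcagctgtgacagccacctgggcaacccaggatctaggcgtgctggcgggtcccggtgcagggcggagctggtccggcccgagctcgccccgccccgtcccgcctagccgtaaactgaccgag
Of these 4, the Stab1 stretch alone held either set of letters, with the Maf half-site beginning 43 bases and the PU.1 core beginning 30 bases before the table's start position. Among the full windows of all 10 members, 5 held the PU.1 letters (Axl, Stab1, Mrc1, Cd300lf and Mfge8) and 3 the Maf letters (Stab1, Cd36 and Timd4). Some of these windows overlap the annotated gene span: those of Cd36 and Cd300lf lie wholly inside it (250 of 250 bases each), 191 bases of Axl's do, its PU.1 letters included, and 13 bases of Timd4's. The same letters occurred in 23.3% and 16.1% of the 32851 promoter windows of this length. A match is a description of the letters only.

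After removal of hashtag doublets and of cells with fewer than 500 genes or at least 10% mitochondrial UMIs, 4918 cells remained (2423 gonadotropin, 2495 Untreated), with 290 to 828 and 296 to 726 cells per mouse and a total of 2559097 to 7097779 UMIs per mouse. Both libraries shared 4 barcode sequences. Cells were gated by the class with the highest fraction of its markers detected, among 12 lineages, and no member gene was a marker. The macrophage gate held 163 cells, 10 of them close to its edge, and 90 cells were left unassigned. In gated macrophages all 6 stroma markers were at 0. Of 6 granulosa markers 3 were detected, with a sum per mouse of 0 to 16.9 raw CPM after gonadotropin and 0 in Untreated mice, while Inha, Amh and Foxl2 were at 0. Of 5 luteal and theca markers 4 were detected, all but Cyp17a1, at 3.91 to 101 against 6.97 to 90.3 raw CPM. Of 6 endothelial markers 3 were detected, at 0 to 138 against 0 to 72.2 raw CPM, while Kdr, Tek and Emcn were at 0, and of 5 surface epithelium markers 1 was, at 0 to 3.91 against 0. The summed erythrocyte genes, by contrast, ranged from 47.3 to 19998 UMIs per 1000000 in gonadotropin mice and from 4.3 to 6.1 in Untreated mice over all cells, and from 46.6 to 64.3 against 0 to 11.5 in macrophages. The median mitochondrial share was 1.80% to 1.96% in gonadotropin mice and 2.21% to 2.34% in Untreated mice, without overlap. The part of any of these in the results below was not tested.

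Levels by cell type are given as raw CPM, UMIs of the gene per 1000000 UMIs of the type, over cells of all mice, with the share of cells that held at least 1 UMI and its exact (Clopper-Pearson) 95% interval. These intervals cover counting error only. A mean ± SD over mice uses mice with at least 5 cells of the type. Since the types differ in depth, with a median of 3549 UMIs per macrophage and 13027 per classical monocyte, the share expected at 1000 UMIs per cell is added where the order matters.

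Among the receptors that act through bridging proteins, Mertk was concentrated in macrophages. Macrophages held 271 of its 324 UMIs in kept cells, 83.6%, at 180 raw CPM, and 37.4% of them had at least 1 Mertk UMI (29.98% to 45.3%). Over the 10 mice the Mertk level in macrophages was 161 ± 76.0 raw CPM. Classical monocytes followed at 31.2 raw CPM, and 32 of their 44 Mertk UMIs came from the 20 cells of that gate that clustered with macrophages. No Mertk UMI was found in 114 non-classical monocytes, so at most 2.63% of them would be found with a UMI at this depth, which sets no limit on cells that express the gene. The 2426 B cells and 1255 T cells held 2 UMIs each, at medians of 6664 and 8175 UMIs per cell against 3549 in macrophages. The macrophage value stood far above that of these lymphocytes. The part of free RNA in droplets was not tested.

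Axl, the other kinase of the family, was likewise highest in macrophages, at 123 raw CPM with 37.4% of cells positive and 135 ± 106 over mice (SD, n = 10). Classical monocytes were at 33.4 and Cd209a-type dendritic cells at 26.5 raw CPM of Axl, and these neighbours did not differ beyond their spread over mice (22.0 ± 23.6, n = 8, and 38.2 ± 12.98, n = 3). Macrophages held 60.9% of Axl UMIs and classical monocytes 15.5%.

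Itgb5, the beta chain of the integrin that binds Mfge8-coated cells, was shared between macrophages (146 raw CPM) and non-classical monocytes (138). Their spreads over mice overlapped, at 166 ± 144 (n = 10) and 139 ± 56.0 (n = 8). Classical monocytes were lower for Itgb5, at 67.4, and neutrophils were at 33.7 raw CPM. The bridge itself, Mfge8, was sparse in every leukocyte type. Of its UMIs 41.0% were in T cells, 23.9% in NK cells and 8.0% in macrophages, with 7.2, 11.3 and 10.0 raw CPM of Mfge8, so no type of these stood out. The 13 mast cells had 62.1 raw CPM from 5 Mfge8 UMIs.

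Of the direct phosphatidylserine receptors, Timd4 was the most restricted. Its 100 UMIs in kept cells lay in macrophages for 91.0%, and 7.36% of macrophages held one (3.86% to 12.5%). The next value, 24.7 raw CPM in Xcr1-type dendritic cells, came from 5 UMIs in 1 cell of 18. No Timd4 UMI was seen in 2426 B cells, so at most 0.124% of them would be found with a UMI.

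Stab1, an endocytic receptor for phosphatidylserine and for modified low-density lipoprotein, was also mainly a macrophage transcript, with 78.2% of its UMIs there. Its level in macrophages was 146 raw CPM against 25.5 in classical monocytes, and 39.9% of macrophages held a Stab1 UMI. Over mice the macrophage level was 209 ± 295 (n = 10), a spread that rests on 1 gonadotropin mouse at 1029 raw CPM, gonadotropin mouse 1.

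Cd300lf, an inhibitory receptor of the CD300 family that binds phosphatidylserine and ceramide, had a different pattern from the other receptors. It was highest in neutrophils at 605 raw CPM, where 82.1% of 112 cells held a UMI (73.8% to 88.7%), and next in plasmacytoid dendritic cells at 156, where 80.6% of 31 cells did. At 1000 UMIs per cell the expected shares for Cd300lf were 43.7% and 14.2%. B cells held 45.4% of all Cd300lf UMIs and neutrophils 28.8%, and within B cells nearly all came from the B-1-like cells, which are described separately. Macrophages held 2.9% of Cd300lf UMIs. T cells had 0.2 raw CPM of it, with 0.2% of cells positive.

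The broad scavenger receptors were not confined to macrophages. Mrc1 stood at 440 raw CPM in Cd209a-type dendritic cells and 354 in macrophages, with 55.6% and 52.1% of cells positive. The spreads of Mrc1 over mice overlapped (582 ± 294, n = 3, and 453 ± 231, n = 10). Classical monocytes were at 56.1. Macrophages held 46.9% of Mrc1 UMIs, these dendritic cells 24.8% and B cells 14.0%.

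Cd36, a receptor for oxidised lipoproteins and long-chain fatty acids, was highest in non-classical monocytes at 433 raw CPM (72.8% of cells), followed by macrophages at 277 and Xcr1-type dendritic cells at 257. The spreads over mice of the first pair overlapped, at 436 ± 198 (n = 8) and 295 ± 238 (n = 10), while classical monocytes were at 62.5 raw CPM of Cd36. Non-classical monocytes held 32.5% of Cd36 UMIs, macrophages 30.5% and B cells 22.0%.

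Lrp1, a large endocytic receptor of the low-density lipoprotein receptor family that also takes up calreticulin-coated cells, was present in nearly every monocyte. It stood at 463 raw CPM in non-classical monocytes (92.1% of cells), 321 in classical monocytes (91.5%) and 281 in macrophages (54.6%). At 1000 UMIs per cell the expected Lrp1 shares were 35.5%, 25.8% and 19.2%, in the same order. The 3 types held 31.2%, 29.8% and 27.8% of Lrp1 UMIs. Cd209a-type dendritic cells were at 95.2 raw CPM of Lrp1, and no UMI was found in 18 Xcr1-type dendritic cells.

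**Figure D1:**
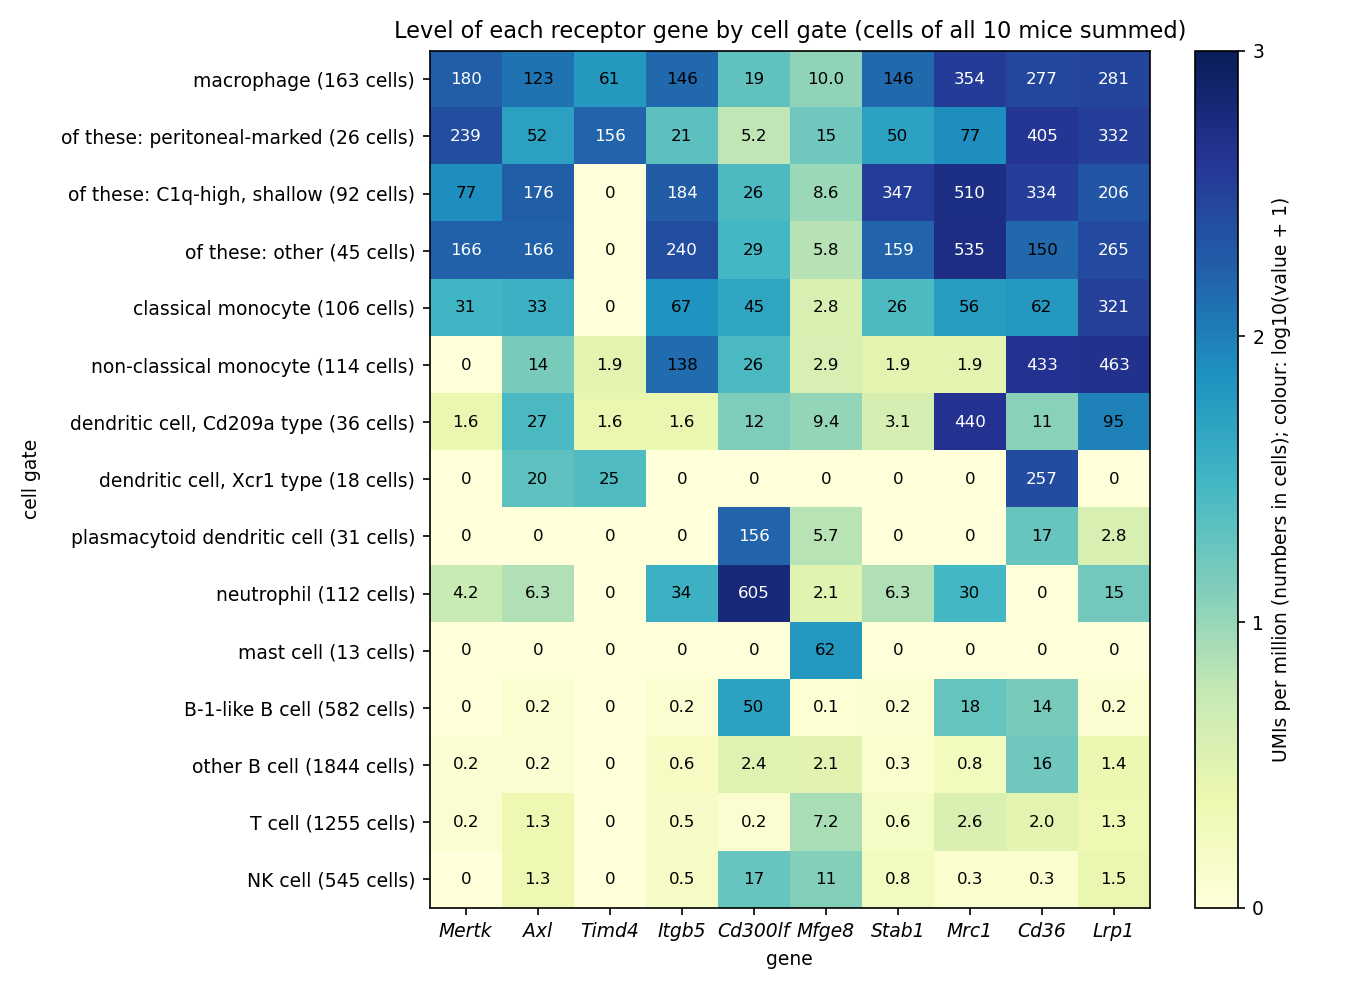
Level of the 10 genes (columns) in each cell gate (rows, with the number of cells), as raw CPM over cells of all 10 mice. The printed numbers are the values and the colour is log10(value + 1). Mertk, Timd4 and Stab1 have their highest values in macrophage rows, Cd300lf in neutrophils, and Lrp1 and Cd36 in non-classical monocytes. A colour compares rows within a column only, since levels of different genes are not on 1 length-corrected scale.

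The macrophages themselves were of several kinds, and the members divided them. By peritoneal markers, at least 4 of 10 detected, 26 cells were peritoneal-marked (Prg4 at 2867 and Gata6 at 112 raw CPM), with 2 cells exactly at that threshold and 3 just below it. Another 92 cells came from the macrophage cluster that was set apart for its low depth, so their median of 2060 UMIs follows from that rule. They were rich in C1q and at 655 raw CPM of Trem2, which are also markers of the macrophage gate. The other 45 cells had a median of 13450 UMIs and Ccr2 at 1114 raw CPM, and 8 of them lay near the edge of the macrophage gate. The clusters behind this division were built without the member genes.

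Timd4 lay in the peritoneal-marked kind: all 91 of its macrophage UMIs came from 12 of those 26 cells, 46.2% (26.6% to 66.6%), and none from the other 137. Mertk was at 239 raw CPM in peritoneal-marked cells, 166 in the other deep cells and 77.1 in the shallow cells. Its share of positive cells, 96.2%, 55.6% and 12.0%, fell at 1000 UMIs per cell to an expected 20.1%, 14.9% and 5.27%, which kept the order.

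Stab1 had the opposite order to Mertk, and Mrc1 was low in peritoneal-marked cells and alike in the other kinds. Stab1 was at 49.8 raw CPM in peritoneal-marked cells, 347 in the shallow C1q-high cells and 159 in the other cells. Mrc1 was at 77.3, 510 and 535 raw CPM. At 1000 UMIs per cell the expected shares were 4.79%, 24.1% and 13.1% for Stab1 and 6.16%, 32.9% and 31.5% for Mrc1. Stab1 thus kept its order, and for Mrc1 the shallow and the other cells changed places. Itgb5 and Axl were also lowest in peritoneal-marked cells, at 20.6 against 184 and 240 raw CPM for Itgb5, and 51.5 against 176 and 166 for Axl.

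Cd36 was at 405, 334 and 150 raw CPM in peritoneal-marked, shallow and other macrophages. Lrp1 was at 332, 206 and 265, the narrowest range of the 10 members as a ratio. Peritoneal-marked and other deep cells each reached 5 cells in 2 mice, so no test between the kinds was run.

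Macrophages and monocytes of the same mice were compared next, with the mouse as a block, in all 10 mice, with levels as CPM scaled by TMM factors. Of 3155 genes tested, 32.6% passed an adjusted p of 0.05 in edgeR's quasi-likelihood test, 16.8% with higher and 15.8% with lower values in macrophages, so a pass is common here. Of the 5 members tested 3 passed, all with higher values in macrophages (median log2 difference 0.89, against 0.004 over all genes). Mertk ranged from 14.4 to 272 CPM in macrophages (median 187) and from 0 to 60.0 in monocytes (median 6.48), and was higher in macrophages in 10 of 10 mice. The log2 difference for Mertk was 3.42 ± 0.43 (SE; edgeR adjusted p = 1.26e-05).

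For Mrc1 the macrophage values ran from 149 to 781 CPM (median 519) and the monocyte values from 0 to 116 (median 5.94), with no overlap over the 10 mice; 1.74% of genes tested were higher in macrophages without overlap. Its log2 difference was 4.13 ± 0.60 (edgeR adjusted p = 4.59e-05). Itgb5 was higher in macrophages in 6 of 10 mice, with medians of 119 and 83.7 CPM and wide overlap, at 0.89 ± 0.33 (edgeR adjusted p = 0.0492), and its call was lost with DESeq2 (adjusted p = 0.0532) and with RLE size factors (0.0513). Cd36 (0.44 ± 0.27, edgeR adjusted p = 0.227) and Lrp1 (-0.30 ± 0.17, adjusted p = 0.177) did not pass. Axl and Stab1 were higher in macrophages in 10 of 10 mice but fell below the count filter, as did Timd4, Cd300lf and Mfge8. For Axl, Untreated mouse 2 was nearly a tie, at 20.5 CPM from 1 UMI in macrophages and 20.1 from 5 UMIs in monocytes. The share of all genes that were higher in 10 of 10 mice was not counted.

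Dendritic cells could be compared with macrophages in 6 mice, where 22.7% of 1891 genes passed, 10.8% with higher values in macrophages. The dendritic cells here were Cd209a-type and Xcr1-type cells summed, and these types differ for the genes below. Over all kept cells, the 36 Cd209a-type cells held 7 Cd36, 61 Lrp1 and 282 Mrc1 UMIs. The 18 Xcr1-type cells held 52, 0 and 0. The part of the mix of both types in these values was not tested. Cd36 had a median of 207 CPM in macrophages and 47.4 in dendritic cells, and Lrp1 254 and 73.6, each higher in macrophages in 6 of 6 mice. The log2 differences were 1.78 ± 0.35 for Cd36 (edgeR adjusted p = 0.00303) and 1.79 ± 0.27 for Lrp1 (edgeR adjusted p = 0.000574). Mrc1 had medians of 416 and 265 CPM, was higher in macrophages in 3 of 6 mice, and did not pass (0.31 ± 0.52, adjusted p = 0.752).

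The treatment groups were then compared on the sum of all CD45+ cells of each mouse, again with levels as TMM-scaled CPM. In such sums, more cells of a type and more RNA per cell cannot be told apart. Of 11266 genes tested 9.12% passed an adjusted p of 0.05, 4.97% with higher values after gonadotropin. Of the 9 members tested 4 passed, all higher after gonadotropin, and the median log2 fold change of the 9 was 0.83 against -0.003 over all genes. All 9 were positive, as were 49.4% of all genes.

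Mertk was at 4.65, 22.6, 26.9, 8.88 and 9.25 CPM in gonadotropin mice 1 to 5 and at 3.86, 1.15, 5.19, 0.79 and 3.90 CPM in Untreated mice 1 to 5. Gonadotropin mice 2 and 3 were far above the rest, and gonadotropin mouse 1 fell inside the Untreated range. Mertk rose by a log2 fold change of 2.19 ± 0.52 (edgeR adjusted p = 0.0208), and the call held without each mouse in turn.

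Stab1 was at 16.8, 8.79, 10.2, 4.72 and 11.0 CPM in gonadotropin mice and at 3.38, 2.49, 6.81, 1.59 and 5.15 CPM in Untreated mice. Here gonadotropin mouse 1 was the highest and mouse 4 overlapped the Untreated range. Stab1 rose by 1.35 ± 0.37 (edgeR adjusted p = 0.0393), a call lost without gonadotropin mouse 1, 3 or 5 or Untreated mouse 1, 2, 4 or 5 (value 1.07 to 1.51, adjusted p 0.0531 to 0.0921).

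Itgb5 was at 18.2, 8.21, 37.5, 12.1 and 15.4 CPM in gonadotropin mice and at 5.31, 6.14, 6.81, 6.34 and 10.1 CPM in Untreated mice. Mouse 3 was the highest, and gonadotropin mouse 2 was below the highest Untreated mouse. The rise of Itgb5 was 1.30 ± 0.35 (edgeR adjusted p = 0.0357), lost without gonadotropin mouse 1 or 5 or Untreated mouse 1, 2, 3 or 4 (value 1.21 to 1.35, adjusted p 0.0581 to 0.0753).

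Lrp1 was at 37.9, 54.5, 63.6, 44.8 and 37.0 CPM in gonadotropin mice and at 16.7, 20.5, 27.5, 27.0 and 38.1 CPM in Untreated mice. Untreated mouse 5 alone reached into the gonadotropin range. Lrp1 rose by 0.85 ± 0.21 (edgeR adjusted p = 0.0236), and the call was lost without gonadotropin mouse 3 (0.74, adjusted p = 0.0525) or Untreated mouse 2 (0.76, 0.0541).

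The other members did not pass. Axl had a mean of 9.81 ± 3.50 CPM (SD, n = 5) against 5.32 ± 3.31 (0.83 ± 0.38, edgeR adjusted p = 0.197), with Untreated mouse 1, at 10.6 CPM, above 3 of the gonadotropin mice. Cd300lf differed by 0.40 ± 0.15 (adjusted p = 0.111, and 0.0443 without gonadotropin mouse 5), Mrc1 by 0.27 ± 0.32 (0.672), Cd36 by 0.15 ± 0.27 (0.807) and Mfge8 by 0.03 ± 0.25 (0.970). Their ranges overlapped: 18.8 to 32.8 CPM after gonadotropin and 16.9 to 24.6 in Untreated mice for Cd300lf, 11.4 to 36.6 and 9.79 to 33.4 for Mrc1, 19.2 to 63.2 and 24.3 to 39.1 for Cd36, and 2.74 to 5.86 and 3.14 to 5.62 for Mfge8. Timd4, at 0, 4.98, 6.06, 2.22 and 0 CPM in gonadotropin mice and 0, 0.77, 1.94, 0 and 6.40 in Untreated mice, was too sparse to be tested and overlapped fully. None of the 9 members separated the groups without overlap, whereas 3.96% of genes tested were higher after gonadotropin without overlap.

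**Figure D2:**
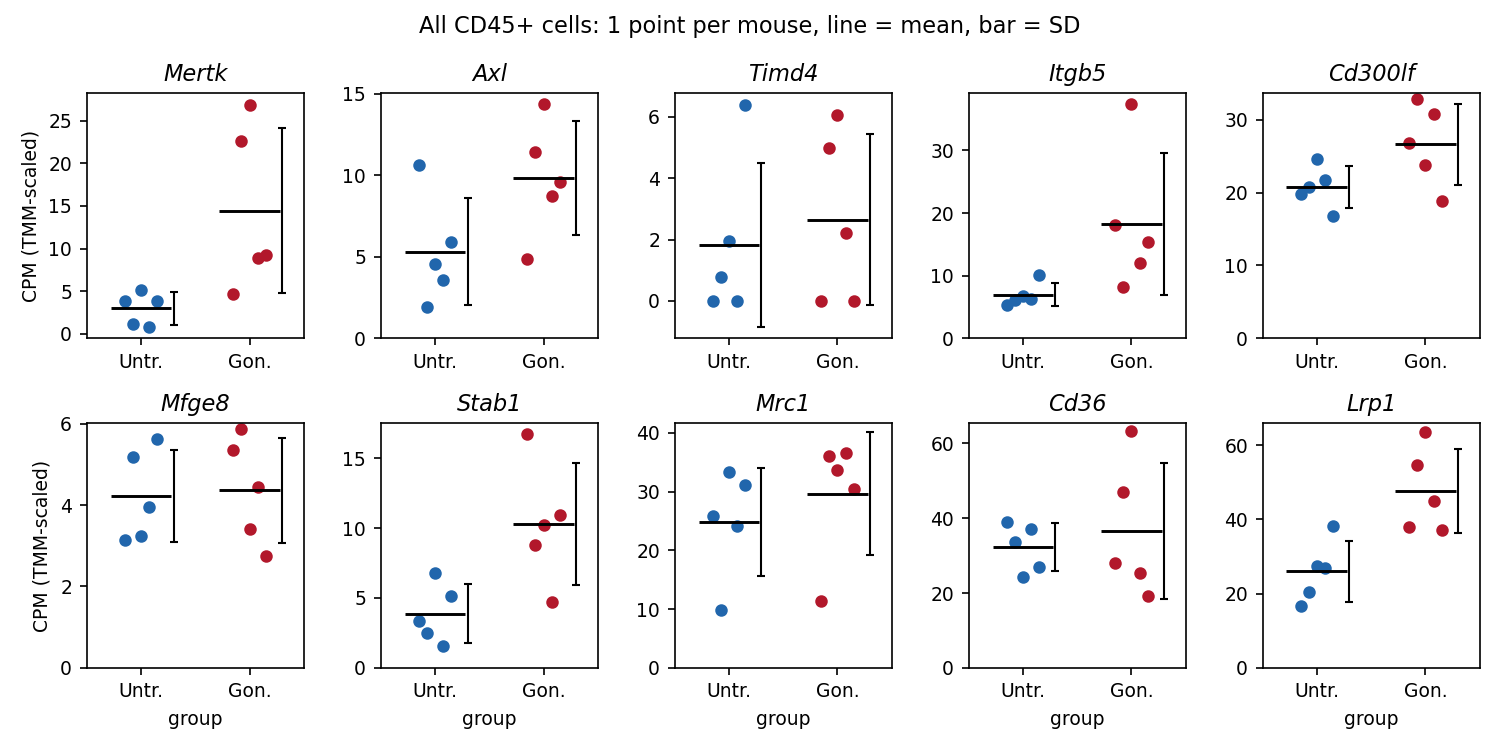
TMM-scaled CPM of the 10 genes in the sum of all CD45+ cells, 1 point per mouse (5 Untreated in blue, 5 gonadotropin in red), with the mean as a line and the SD as a bar; each panel has its own scale. Mertk, Stab1, Itgb5 and Lrp1 have higher means after gonadotropin, with at least 1 mouse of each group inside the range of the other.

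Macrophages were a larger share of CD45+ cells after gonadotropin. They made up 3.02%, 7.14%, 6.90%, 2.78% and 6.04% of kept cells in gonadotropin mice 1 to 5 (17, 27, 20, 23 and 22 cells) and 1.58%, 1.54%, 3.77%, 4.05% and 1.65% in Untreated mice 1 to 5 (8, 10, 12, 12 and 12 cells). Gonadotropin mice 1 and 4 fell below Untreated mice 3 and 4. The means were 5.18% ± 2.12 and 2.52% ± 1.28 (SD, n = 5), a ratio of 2.05 (exact two-sided permutation test, p = 0.0476, where 0.00794 is the smallest the design allows). The difference of 2.66 percentage points did not pass without gonadotropin mouse 2, 3 or 5 or Untreated mouse 1, 2 or 5 (p up to 0.103), nor when B cells were left out of the denominator (8.83% against 5.46%, exact permutation p = 0.119).

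Set against that ratio, the UMIs of each member per 1000 kept cells were split into macrophage share and UMIs per macrophage. Mertk had 127 UMIs per 1000 cells after gonadotropin and 26.5 in Untreated mice, a ratio of 4.80 of means over mice, of which 104 and 22.6 lay in macrophages. The Mertk UMIs per macrophage were 1.89 and 1.09, a ratio of 1.74 beside the ratio of 2.05 for macrophage share. For Mertk that ratio ran from 1.41 to 2.15 with each mouse left out in turn. For Stab1 the ratio of UMIs per macrophage was 1.5, and 1.03 without gonadotropin mouse 1. For Itgb5 it was 1.28, and 0.88 without gonadotropin mouse 3. For Axl it was 1.0, and 2.18 without Untreated mouse 1, whose 8 macrophages held 30 Axl UMIs, or 3.75 per cell, against 0.1 to 1.08 in the other Untreated mice. For Cd36 it was 0.48, and 0.81 without that same mouse, which had 10.4 Cd36 UMIs per macrophage against 1.17 to 4.42 in the others. For Lrp1 it was 0.86, and 1.05 without Untreated mouse 5, and for Mrc1 0.59, with 0.49 to 0.70 over the mice left out. Mertk and Stab1 were thus above 1 and Mrc1 and Cd36 below 1 whichever mouse was left out, while Axl, Itgb5 and Lrp1 lay on either side. UMIs per macrophage also follow the depth of the cells, which differs between kinds of macrophage and between the groups. The median was 3055 UMIs per kept macrophage after gonadotropin and 8095 in Untreated mice. In sum, 109 gonadotropin macrophages held 958491 UMIs and 54 Untreated macrophages 544506, so the mean depths lay closer together than the medians. These ratios therefore do not separate level from depth.

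Within macrophages, levels relative to the macrophages' own UMIs were compared over 5 gonadotropin and 4 Untreated mice, since Untreated mouse 1 had 8 macrophages and was left out. No member passed: of the 7 tested, 0 reached an adjusted p of 0.05 in edgeR and 2 had an unadjusted p under 0.05. Over all 2703 genes tested 0.111% passed and 8.51% had an unadjusted p under 0.05. The median log2 fold change of the 7 members was 1.14, against -0.01 over all genes.

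Mertk was at 199, 252, 201, 199 and 239 CPM in macrophages of gonadotropin mice 1 to 5, from 12, 66, 53, 57 and 26 UMIs. In Untreated mice 2 to 5 it was at 114, 84.6, 13.6 and 138 CPM, from 6, 13, 1 and 23 UMIs. Every gonadotropin mouse was above every Untreated mouse, which 1.15% of genes tested also showed in this direction. The log2 fold change was 1.26 ± 0.36 (edgeR unadjusted p = 0.00434, adjusted p = 0.321). Over its alternatives the value ran from 0.93 to 2.99 and the adjusted p from 0.0266 to 0.688, and a call was made in 1 of them, the fit with every gene of at least 1 UMI, where 0.984% of 13928 genes passed. The highest value, 2.99 (edgeR adjusted p = 0.142), was without the peritoneal-marked cells. That fit had 5 gonadotropin but only 2 Untreated mice with enough macrophages left, so it also changed the mice compared.

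Axl was at 281, 99.1, 117, 129 and 165 CPM against 19.0, 84.6, 40.7 and 54.1 CPM (1.38 ± 0.41, edgeR adjusted p = 0.330). These mice did not overlap, but the separation rests on leaving out Untreated mouse 1, whose 8 macrophages stood at 345 raw CPM of Axl, above the highest gonadotropin mouse at 287 raw CPM. With mice of at least 5 macrophages, which brings that mouse in, the value for Axl was 0.46 (edgeR adjusted p = 0.976). Its Mertk level, 161 raw CPM, stayed below the lowest gonadotropin mouse at 202 (1.09 with that mouse, edgeR adjusted p = 0.447), and its Cd36 level of 955 raw CPM was the highest of all 10 mice (-0.80, edgeR adjusted p = 0.866). With macrophages taken from clusters instead, the value for Axl was -0.04, and with doublets counted -0.02. The fit with doublets had 5 Untreated mice in place of 4, Untreated mouse 1 among them, so it also changed the mice compared.

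Stab1 stood at 1009, 83.8, 75.7, 101 and 275 CPM in gonadotropin mice and 133, 137, 27.1 and 90.2 in Untreated mice, and Itgb5 at 496, 38.1, 265, 94.2 and 193 against 57.1, 117, 40.7 and 108. Both overlapped, and gonadotropin mouse 1, whose 17 macrophages included 15 shallow C1q-high cells and no peritoneal-marked cell, was the highest for each. Neither passed (Stab1 1.42 ± 0.81, edgeR adjusted p = 0.737; Itgb5 1.14 ± 0.63, 0.703), and without that mouse the Stab1 value was 0.34.

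Mrc1 was at 728, 152, 140, 359 and 624 CPM in gonadotropin mice and 495, 475, 678 and 192 CPM in Untreated mice, and did not pass (-0.23 ± 0.51, edgeR adjusted p = 0.960). Cd36 was at 182, 305, 227, 195 and 128 against 228, 221, 190 and 319 CPM (-0.18 ± 0.27, 0.921), and Lrp1 at 248, 351, 242, 272 and 211 against 247, 293, 109 and 349 CPM (0.07 ± 0.29, 0.987). These 3 overlapped widely. Timd4, Cd300lf and Mfge8 were too sparse to be tested, with 43, 23 and 3 UMIs after gonadotropin and 48, 4 and 11 in the Untreated mice.

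The mix of macrophage kinds differed from mouse to mouse in both groups. Peritoneal-marked cells gave 0%, 65.2%, 35.8%, 26.8% and 13.6% of macrophage UMIs in gonadotropin mice 1 to 5 and 52.8%, 34.9%, 27.1%, 17.6% and 63.9% in Untreated mice 1 to 5. Macrophages held 0, 16, 16, 11 and 0 Timd4 UMIs in gonadotropin mice and 0, 4, 6, 0 and 38 in Untreated mice. Every one of these UMIs lay in peritoneal-marked cells. Untreated mouse 1 had none at 52.8%, a share that came from 2 peritoneal-marked cells. Within the kinds, over cells of each group summed, Mertk was at 305 raw CPM after gonadotropin and 141 in Untreated cells of the peritoneal-marked kind, 216 and 68.8 in the other deep cells, and 64.1 and 103 in the shallow cells. The shallow kind, which had 65 of the gonadotropin and 27 of the Untreated macrophages, thus had the reverse order for Mertk, from 18 UMIs in all. These are pooled values without replication and were not tested.

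**Figure D3:**
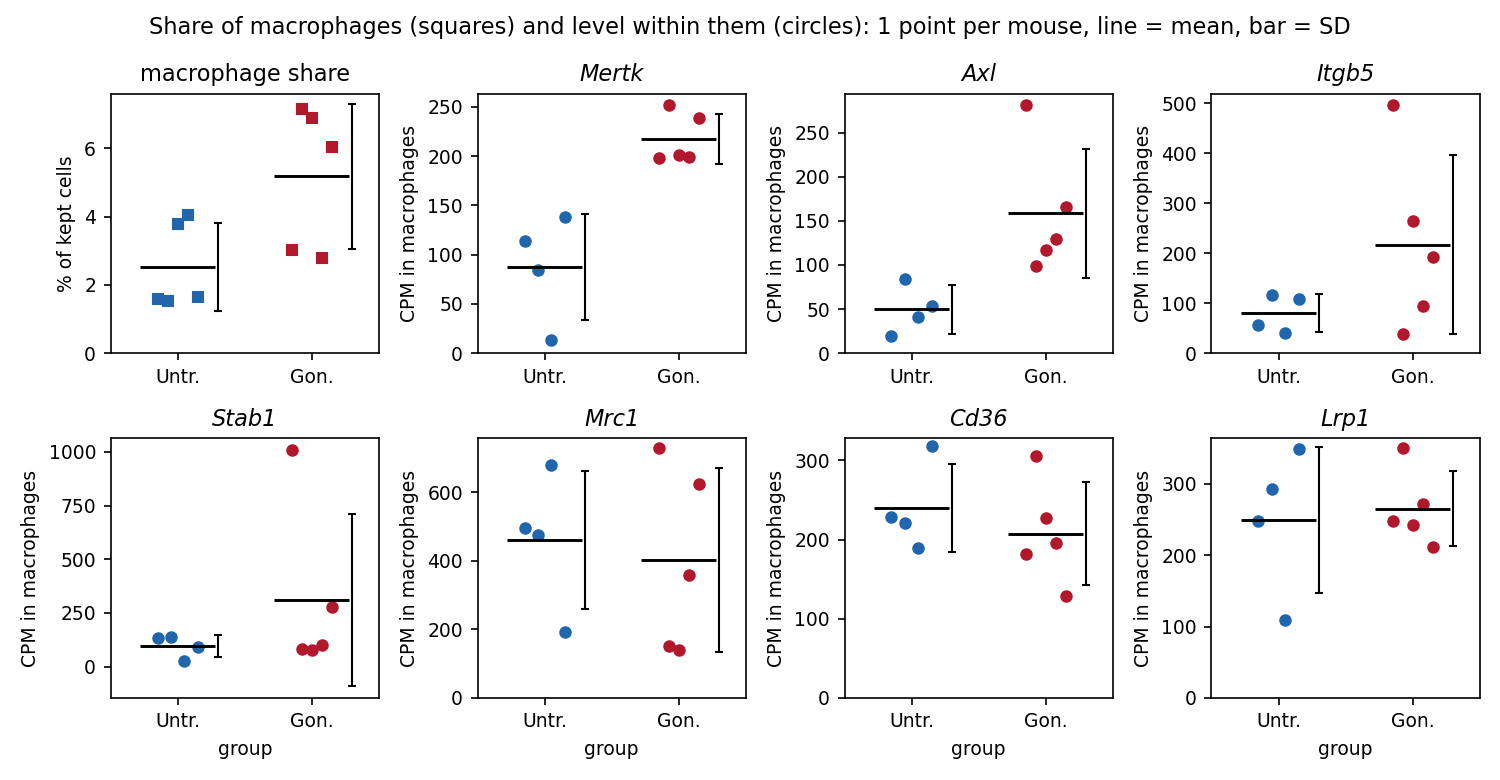
Macrophages as a percent of kept cells (squares, 5 mice per group), and TMM-scaled CPM within macrophages for the 7 members tested there (circles, 5 gonadotropin and 4 Untreated mice), 1 point per mouse with the mean as a line and the SD as a bar. The share has a mean of 5.18% against 2.52% and overlaps; Mertk and Axl do not overlap between the mice shown, and Mrc1, Cd36 and Lrp1 do; Untreated mouse 1, not plotted for the genes, had Axl above every gonadotropin mouse (345 raw CPM).

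Outside the macrophage gate Lrp1 was the one member of 7 tested that passed, where 10.1% of 11099 genes did (5.54% with higher values after gonadotropin). It was at 34.9, 29.6, 43.5, 35.4 and 30.3 CPM in gonadotropin mice and at 10.4, 18.2, 13.7, 24.5 and 29.8 CPM in Untreated mice. Untreated mouse 5 overlapped the lower end of the gonadotropin mice. Lrp1 rose by 0.82 ± 0.22 (edgeR adjusted p = 0.0331), lost without gonadotropin mouse 1, 3, 4 or 5 or Untreated mouse 2 or 3 (value 0.73 to 0.86, adjusted p 0.0532 to 0.0753).

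Monocytes held most of the Lrp1 in these cells. They were 4.97%, 4.50%, 7.93%, 4.71% and 6.04% of kept cells in gonadotropin mice and 1.19%, 3.69%, 2.52%, 4.73% and 5.37% in Untreated mice. The means were 5.63% and 3.50%, and the groups overlapped. The part of the monocyte share in the Lrp1 difference was not tested. Within monocytes alone, a comparison chosen after seeing the data in which 0 of 4064 genes passed in edgeR and 298 had an unadjusted p under 0.05, Lrp1 was at 530, 406, 299, 419 and 287 raw CPM in gonadotropin mice and 345, 368, 318, 414 and 364 in Untreated mice. The groups overlapped fully (0.11 ± 0.18, edgeR adjusted p = 0.962). With monocytes also removed from the other cells, Lrp1 differed by 0.48 (adjusted p = 0.519), and 9.66% of genes passed.

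Itgb5 outside macrophages was at 11.3, 5.68, 12.1, 8.67 and 8.56 CPM against 0.49, 5.62, 1.03, 5.30 and 7.54 CPM, with overlap from Untreated mouse 5, and did not pass (1.11 ± 0.44, edgeR adjusted p = 0.128). In the non-classical monocytes, singled out after their values were seen, Itgb5 stood at 212, 144, 178, 172 and 170 raw CPM in gonadotropin mice and at 0, 93.6, 0, 39.8 and 105 in Untreated mice, where the values of 0 come from mice with 3 such cells each. Cd36 in those cells ran the other way, at 329, 234, 553, 300 and 316 raw CPM against 568, 501, 771, 849 and 405, and overlapped. Neither passed in all monocytes together (Itgb5 0.47 ± 0.32, edgeR adjusted p = 0.811; Cd36 -0.68 ± 0.33, 0.674).

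Mertk outside the macrophage gate was too sparse to be tested, with 45 UMIs after gonadotropin and 8 in Untreated mice, and at most 7.52 and 1.03 CPM in any mouse. The remaining members there differed by 0.39 ± 0.16 for Cd300lf (edgeR adjusted p = 0.143, and 0.0409 without gonadotropin mouse 5), 0.36 for Mrc1, 0.20 for Mfge8, 0.16 for Axl and 0.10 for Cd36, and none of these passed. By marker score, 13 cells of other types had the macrophage class next within 0.1 of their own. By cluster, 20 classical and 14 non-classical monocytes of these gates lay with macrophages, and those 20 held 32 of the Mertk UMIs outside the macrophage gate.

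In B cells 3 members had enough UMIs to be tested, and none passed an adjusted p of 0.05 in edgeR, where 2.12% of 9068 genes did. Cd300lf alone of the 3 had an unadjusted p under 0.05, as had 19% of genes. Cd300lf was at 18.4, 45.3, 32.2, 31.2 and 13.3 CPM in gonadotropin mice and 11.7, 11.4, 32.0, 23.0 and 18.2 CPM in Untreated mice, with overlap (0.63 ± 0.29, edgeR adjusted p = 0.243). Mrc1 was at 1.84, 21.6, 7.77, 14.7 and 3.34 against 4.93, 3.26, 13.1, 7.41 and 4.01 CPM (0.83 ± 0.48, 0.365). Cd36 was at 17.8, 18.0, 17.8, 17.5 and 11.7 against 11.7, 20.2, 7.43, 7.41 and 13.4 CPM (0.38 ± 0.24, 0.412).

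B-1-like cells, B cells with at least 4 of 6 markers of the innate-like B-1 lineage (Zbtb32, Bhlhe41, Il5ra, Fcrl5, Sox5 and Mzb1), held Cd300lf and Mrc1 far more than other B cells. This class is a range and not a separate type: 183 of its 582 cells were at the threshold and 197 B cells were 1 marker below it. In B-1-like cells Cd300lf was at 153, 97.0, 65.6, 75.2 and 32.6 raw CPM in gonadotropin mice and 27.5, 29.7, 42.6, 36.1 and 42.0 in Untreated mice, while other B cells ranged from 0 to 6.21. At 1000 UMIs per cell the expected share of cells with Cd300lf was 4.20% in B-1-like and 0.16% in other B cells, so the contrast was also there at equal depth.

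Mrc1 in B-1-like cells was at 10.9, 46.9, 15.8, 39.4 and 9.32 raw CPM after gonadotropin and 12.6, 6.31, 18.2, 10.5 and 7.34 in Untreated mice. Its expected shares at 1000 UMIs per cell were 1.45% in B-1-like and 0.07% in other B cells. Cd36 did not follow the class, with 1.29% and 1.35%. All 10 mice had a higher level of both Cd300lf and Mrc1 in B-1-like than in other B cells.

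When B-1-like cells were compared alone, a choice made after seeing the data, Cd300lf rose by a log2 fold change of 1.08 ± 0.22 (edgeR adjusted p = 0.0368), in a fit where 0.312% of 7361 genes passed, 0.149% with higher values. Gonadotropin mouse 5 lay inside the Untreated range and the other 4 were above it. Mrc1 (1.38 ± 0.36, edgeR adjusted p = 0.103) and Cd36 (0.74 ± 0.33, 0.509) did not pass. The share of B cells that were B-1-like moved the other way, at 5.31%, 24.8%, 27.5%, 20.5% and 17.0% in gonadotropin mice and 24.8%, 24.2%, 43.5%, 38.4% and 25.8% in Untreated mice. Gonadotropin mouse 1, with the highest Cd300lf, had 13 B-1-like cells.

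**Figure D4:**
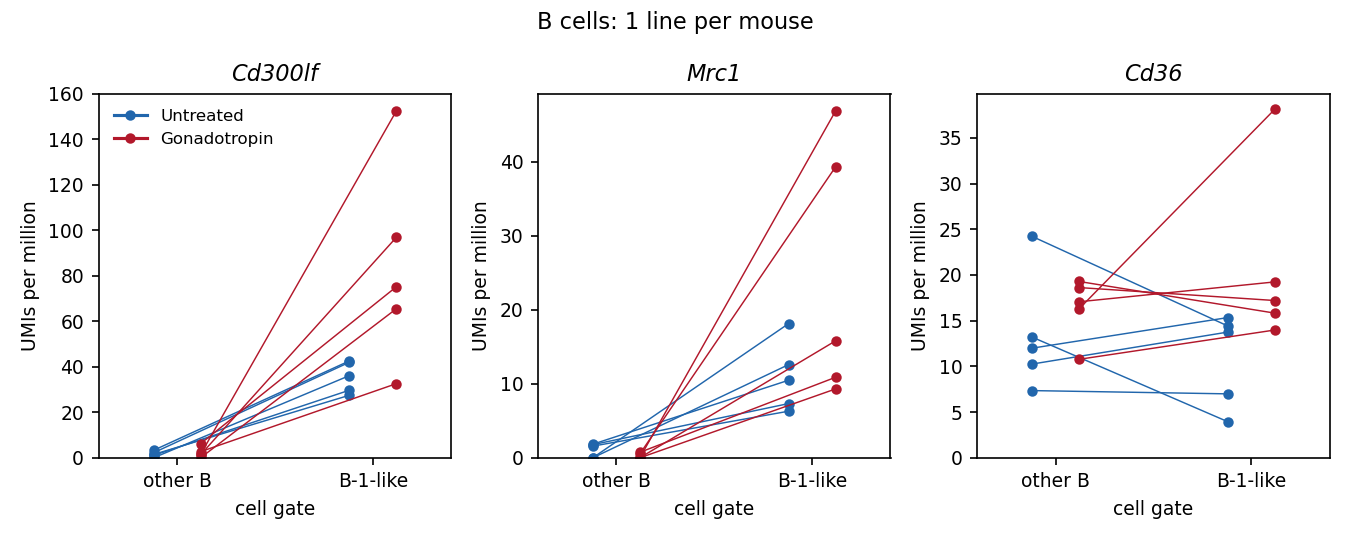
raw CPM of Cd300lf, Mrc1 and Cd36 in other B cells (left of each panel) and B-1-like B cells (right), 1 line per mouse, 5 Untreated in blue and 5 gonadotropin in red. Every line rises for Cd300lf and Mrc1, whereas the lines for Cd36 run both ways; 4 gonadotropin mice lie above all Untreated mice for Cd300lf in B-1-like cells.

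In neutrophils, the type with the highest Cd300lf level, its values were 739, 515, 500, 428 and 376 raw CPM in gonadotropin mice and 1290, 805, 1181, 341 and 346 in Untreated mice. Untreated mouse 3 had 2 neutrophils there. The groups overlapped, and with 2 to 30 neutrophils per mouse no test was run.

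Hashtag doublets, barcodes with more than 1 hashtag, were left out of all values above, and they held an unequal part of these genes. Of all UMIs in the matrix 34.0% lay in doublets. For Mertk the share was 72.8% (868 of 1193 UMIs), for Timd4 59.8%, Mrc1 59.1%, Lrp1 58.9%, Stab1 58.6%, Axl 54.6%, Cd36 53.5%, Itgb5 48.8% and Cd300lf 40.0%, and Mfge8, at 31.1%, was the one member below the share of all genes. The doublet share of Mertk was 75.4% in the gonadotropin library and 51.9% in the Untreated library, against 36.9% and 31.0% over all genes.

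Macrophage-gated barcodes were called doublets in 119 of 267 cases (44.6%) in the gonadotropin library and 22 of 94 (23.4%) in the Untreated library. They were deep, with a median of 22961 and 17372 UMIs against 2218 and 2902.5 in all macrophage-gated singlets, before the cell filter. Of them 16 of 119 and 3 of 22 carried at least 3 B, T or NK markers, against 3 of 137 and 2 of 64 singlets, and 37 and 6 were peritoneal-marked. The Mertk level in these doublets, 201 and 117 raw CPM, was close to that of macrophage-gated singlets, 218 and 103. Axl was lower in doublets, at 67.6 and 70.6 against 137 and 107 raw CPM. So were Stab1 (94.0 and 51.6 against 176 and 114) and Mrc1 (271 and 318 against 317 and 445). Itgb5 was at 63.6 and 109 against 166 and 114. Lrp1 (338 and 209 against 279 and 277) and Cd36 (255 and 264 against 234 and 360) were higher in doublets of the gonadotropin library only.

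With doublets counted too, by their first tag, for gene counts a choice made after seeing the data, 17.9% of 12086 genes passed over all CD45+ cells, 10% with higher values. Mertk then rose by 2.98 (edgeR adjusted p = 0.0022), Stab1 by 2.11, Lrp1 by 1.34 and Itgb5 by 1.16, and Axl passed as well (1.26, adjusted p = 0.00932). The macrophage share differed by 5.36 percentage points (7.93% against 2.57%, exact permutation p = 0.00794). Within macrophages so counted, 0.202% of 4450 genes passed and Mertk did not (0.93, adjusted p = 0.331).

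**Figure D5:**
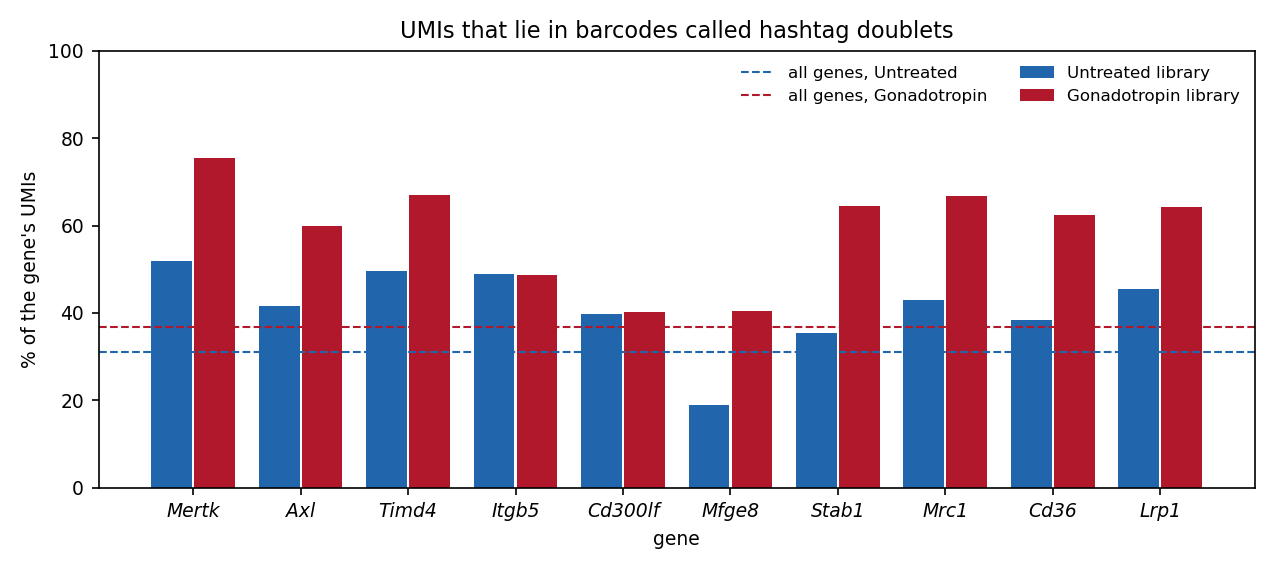
Percent of each gene's UMIs that lay in barcodes called hashtag doublets, in the Untreated library (blue bars) and the gonadotropin library (red bars), with dashed lines for the UMIs of all genes (31.0% and 36.9%). Mertk has the highest bar of the gonadotropin library, at 75.4%.

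A wider list of efferocytosis and scavenging genes, 92 of them in the matrix, was read in the same fits. This list too was chosen with earlier results of these data known. Over all CD45+ cells 75 were tested, 16 passed with higher and 2 with lower values after gonadotropin, beside the 4.97% and 4.15% over all genes, and the median log2 fold change was 0.26. Of other receptors and integrins 6 of 11 tested passed, all higher, while scavenger receptors gave 1 of 10, engulfment signalling 3 of 11, the lysosome and phagosome 3 of 11, lipid handling 2 of 12, and restraint and resolution 0 of 6. Itgam, the alpha chain of complement receptor 3, rose from 84.5 ± 17.6 to 176 ± 72.5 CPM (1.05 ± 0.25, edgeR adjusted p = 0.0192). Cd300lb (0.97, adjusted p = 0.0126) and Cd300ld (0.93, 0.00979), relatives of Cd300lf, rose, as did the chemerin receptor Cmklr1 (1.14, 0.0421) and the nuclear receptor Rxra (1.14, 0.0429). These sums also read cell shares. Kept neutrophils numbered 76 after gonadotropin and 36 in Untreated mice, NK cells 364 and 181, and B cells 1037 and 1389. The part of such shares in these differences was not tested.

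Stab2, a close relative of Stab1, had the largest fold change of that list (2.51 ± 0.69, edgeR adjusted p = 0.0380), but 189 of its 211 UMIs came from 13 unassigned cells and 2 from macrophages. The summed endothelial genes were at 162 to 235 raw CPM in gonadotropin mice and 185 to 212 in Untreated mice over all cells. Cd24a, which carries a signal against uptake and had 87.0% of its UMIs in B cells, fell by 0.66 on the log2 scale (edgeR adjusted p = 0.00212). S1pr1, a receptor for sphingosine 1-phosphate, fell by 0.36 (0.0445).

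Within macrophages 52 of the list were tested and none passed in edgeR, with 7 at an unadjusted p under 0.05, 34 of 52 positive and a median of 0.19. The smallest p-values belonged to Cd300c2 (1.08, edgeR adjusted p = 0.330), calreticulin, Calr (-0.58, 0.447), Cd300ld (0.92, 0.491) and Cd24a (-1.83, 0.530). Outside macrophages 72 were tested, of which 12 passed with higher and 2 with lower values, beside 5.54% and 4.53% of all genes. The largest of these were Stab2 (2.55), Cmklr1 (1.10), Cd300lb (0.98), Itgam (0.95), Cd300a (0.82) and Cd300ld (0.78), with Cd24a (-0.63) and S1pr1 (-0.35) lower. In B cells, where 1.31% of all genes passed with higher and 0.805% with lower values, 52 were tested. Vav3 (0.50), Rubcn (0.35) and Tfeb (0.33) rose while Socs3 (-1.04) and Cd24a (-0.45) fell.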

How the data were processed

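The deposited table is a matrix of raw UMI counts per gene and barcode over both libraries, together with the authors' hashtag calls. Processing with Seurat and Cell Ranger after bcl2fastq, on the build mm10, is named without versions or roles in the submitters' processing notes. Filters and hashtag thresholds are not given in the sources used here. Of 6468 barcodes, 5031 were single-hashtag cells, and 4918 of these had at least 500 genes and under 10% mitochondrial UMIs. Each cell took the class with the highest fraction of its markers detected (at least 3 markers, ties unassigned), and no doublet caller beyond the hashtags was run. The members and lists were chosen with earlier results of these data known.

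Counts were summed per mouse and tested with edgeR 4.0.16 in R 4.3.3 (TMM, filterByExpr, quasi-likelihood test, two-sided, Benjamini-Hochberg over all genes tested), for types with at least 10 cells per mouse, or 5 in comparisons between types, which had the mouse as a block. Each log2 fold change is given with its standard error. DESeq2 1.42.0 and RLE size factors were alternatives. Levels in tests are CPM scaled by TMM factors (counts per 1000000), and raw CPM elsewhere are unscaled. Clusters (scanpy 1.11.5, Leiden) were made without the members. Shares at 1000 UMIs per cell are expected values for cells of at least that depth. The scripts were tested on simulated data. All 10 members are named. Of the wider list, at most 6 genes up and 6 down past an adjusted p of 0.05 are named, by size of the fold change, and otherwise the 4 with the smallest p.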

Additional observations from a re-analysis of the deposited data

Results flagged for a closer look

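Among 54 sets of 5 or 4 mice examined, 3 had 1 mouse standing far from the others, where chance alone gives about 1 in 20. In all CD45+ cells, Mrc1 was at 11.4 CPM in gonadotropin mouse 1, with the next mouse at 30.5 CPM. In macrophages, Stab1 was at 1009 CPM in the same mouse, with the next at 275 CPM; its macrophages were 15 shallow C1q-high cells and 2 others. In B cells, Cd36 was at 11.7 CPM in gonadotropin mouse 5, with the next at 17.5 CPM.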

How the results depend on the processing

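Depth limited most results: macrophages had a median of 3549 UMIs, 9 of 10 mice had at least 10 of them, and in the sum of macrophages 3 of the 10 members were too sparse to be tested. Libraries and treatments cannot be told apart under any alternative.

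The number of genes called in all CD45+ cells was 1027, and 2160 with doublets counted by the first tag; it was 682 (without gonadotropin mouse 4) to 1063 with each mouse left out in turn. In macrophages it was 3 in edgeR (230 at an unadjusted p under 0.05), 12 with DESeq2, 137 with every gene of at least 1 UMI, 9 with doublets and 1 with clusters. It was 0 in edgeR with all single-hashtag barcodes (129 at an unadjusted p under 0.05), with the stricter gate (197), with mice of at least 5 macrophages (135) and in the shallow C1q-high cells alone (6), and 0 to 4 with each mouse left out, with 0 without gonadotropin mouse 4 (150) or 5 (205) or Untreated mouse 2 (227) or 3 (263). DESeq2 was not run in these. Outside macrophages it was 1118, 0 in monocytes alone, and 676 to 1110 with each mouse left out, with 676 and 729 without gonadotropin mice 4 and 5. In B cells it was 192, 324 with DESeq2, 495 with every gene, 23 in B-1-like cells, and 35 to 223 with each mouse left out. It was 72, 35 and 53 without gonadotropin mice 1, 4 and 5 and 79, 65 and 83 without Untreated mice 3, 4 and 5. Between types, every gene of at least 1 UMI gave 1619 calls in place of 1029 against monocytes and 1013 in place of 429 against dendritic cells. The macrophage share differed by 2.16 to 3.26 percentage points with each mouse left out and by 3.37 with B cells outside the denominator.

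Without the mouse as a replicate block, 1123 genes in place of 1029 were called against monocytes and 418 in place of 429 against dendritic cells, and no member's call changed. No paired analysis was possible between treatments because the mouse numbers of the groups are only names.

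Sign changes occurred in members that had not passed. With each mouse left out in turn, all CD45+ cells gave -0.12 to 0.29 for Cd36 and -0.081 to 0.17 for Mfge8. Macrophages gave -0.51 to 0.028 for Mrc1, -0.36 to 0.013 for Cd36 and -0.17 to 0.28 for Lrp1, and the other cells -0.057 to 0.57 for Axl and -0.15 to 0.26 for Cd36. In macrophages Axl was -0.042 with clusters and -0.023 with doublets, Mrc1 was 1.17 with the stricter gate and 0.13 with clusters, and Lrp1 was -0.0098 with all single-hashtag barcodes and -0.091 with the stricter gate. Outside macrophages Mrc1 was -0.097 with the stricter gate and -0.31 with clusters, and Cd36 was -0.016 with clusters, -0.68 in monocytes alone and -0.072 without monocytes. The cause of these changes was not tested. Over all alternatives, 414 member values kept their direction and their side of the threshold, 26 lost and 7 gained a call, and 25 changed sign. Doublets by first tag, the shallow cells, the cells near the gate, B-1-like cells and monocytes as alternatives, and the ratios of UMIs per macrophage without each mouse, were chosen after seeing the data.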

Other observations

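The wider list was also read between macrophages and monocytes of the same mice. Of 52 genes tested there in edgeR's quasi-likelihood test, 14 were higher and 14 lower in macrophages, where 16.8% and 15.8% of all genes were. The wider list includes Cd68, a marker of the macrophage gate, whose values between these types are therefore not independent of the gate. The lipid exporter Abca1 (2.62 ± 0.41, SE; edgeR adjusted p = 8.79e-05), the lysosomal proteases Ctsd (2.45 ± 0.22, 3.30e-07) and Ctsl (1.80 ± 0.25, 2.83e-05) and the lipase Lpl (1.79 ± 0.32, 0.000312) were among the higher. The receptor Havcr2 (-2.18 ± 0.35, edgeR adjusted p = 0.000137), the nuclear receptor Pparg (-1.82 ± 0.31, 0.000200), the lipoprotein receptor Scarb1 (-1.31 ± 0.23, 0.000235) and the inhibitory receptor Cd300a (-1.20 ± 0.16, 2.58e-05) were among the lower. Protein S, Pros1, the bridge to Mertk, was at a mean of 121 CPM in macrophages and 48.0 in monocytes (1.29 ± 0.20, edgeR adjusted p = 7.08e-05). These genes were chosen after their values were seen.

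The genes whose level ran most like each member over the 9 cell types with at least 20 cells were taken by Pearson's r of log2(raw CPM + 10), among 11455 genes. The types share both libraries, and high values are usual where 1 type holds most of a gene. For Mertk they were Folr2 (r = 0.998), Mlxipl (0.998) and Stab1 (0.997), and for Stab1 they were Mertk, Mlxipl and Folr2. For Timd4 they were Vcam1 (0.997), Ptgis (0.996) and Tgfb2 (0.995). For Lrp1 they were Lima1 (0.994), Clec4a1 (0.989) and Hpgd (0.987). For Itgb5 the first was Apoc2 (0.977), for Mrc1 Dab2 (0.974), for Axl Anxa3 (0.970), for Cd300lf Mier3 (0.964), for Cd36 Fmn1 (0.951) and for Mfge8 Asb2 (0.911).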
